A study of Mus musculus with 8 samples.

Results

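The genes described here are 10 genes of the circadian clock and its output: Nfil3, Bhlhe40, Per1, Per2, Arntl, Clock, Nr1d1, Nr1d2, Dbp and Tef. They were taken by name from a table of 22549 genes, with no threshold on a measured value but with earlier results of these data known. RNA was sequenced from invariant natural killer T (iNKT) cells, which are T lymphocytes whose semi-invariant receptor binds lipids held by CD1d. There were 4 libraries of skin cells and 4 of spleen cells from mice. The mice of both groups were CCR10+/EGFP, with 1 allele of the chemokine receptor gene Ccr10 carrying EGFP, so no group without the reporter enters the comparison. The labels used here give no strain, age or hour of collection, and do not say whether libraries came from separate or pooled animals. Spread between libraries, technical or not, is all that the p-values below measure.

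The clock of mammalian cells is a loop of transcription. CLOCK and BMAL1, the product of Arntl, pair up on E-box sequences and activate the Per and Cry genes, whose proteins return to inhibit the pair, and the Nr1d1 and Nr1d2 genes, whose proteins (REV-ERB alpha and beta) repress Arntl. The leucine zipper proteins DBP and TEF activate genes through D-box sequences, and NFIL3 represses at the same sequences. BHLHE40 (DEC1) represses at E-boxes. In lymphocytes NFIL3 is also known for its part in the development of natural killer cells and innate lymphoid cells, and BHLHE40 for its part in cytokine production by T cells.

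Of the 10 genes, Nfil3 and the REV-ERB alpha gene Nr1d1 were the ones whose 4 skin libraries all lay above the 4 spleen libraries. The same held for 6.11% of all genes tested. Nfil3 averaged 343 CPM (counts scaled to one total per library and corrected for composition) in skin and 5.65 CPM in the spleen, and Nr1d1 averaged 102 and 19.5 CPM. The levels of the other 8 genes overlapped between the tissues. A filter on low counts left 7 of the 10 for edgeR's quasi-likelihood test. With all 8 libraries, 0 of the 7 passed at a Benjamini-Hochberg adjusted p under 0.05. Among all genes tested, 1.85% were called higher in skin and 3.58% lower. Nfil3 passed when spleen replicate 4 was left out. That library held the only spleen count of Nfil3, so the call rests on spleen libraries that were all at 0. It was also the spleen library with high immediate early transcripts.

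Library totals ranged from 7191131 to 9791973 expected counts. Skin libraries held counts for 5302 to 6012 genes and spleen libraries for 6415 to 10094 (means 5643 ± 393 and 8024 ± 1692, SD, n = 4 each; p = 0.0286 in a two-sided exact permutation test, the smallest possible here). A value of 0 was therefore common: genes that stood at 10 to 30 CPM in the other libraries of a tissue were at 0 in 44.0% of skin values and 18.6% of spleen values. At 60 to 200 CPM these shares were 21.7% and 7.76%, and at 200 to 600 CPM they were 3.41% and 0.744%. All 8 markers of T and iNKT cells had counts in both tissues, among them Cd3e, a chain of the T cell receptor complex, at 589 ± 252 CPM in the skin and 528 ± 43.3 CPM in the spleen. Not all were level between the tissues. Of the 8, edgeR called 1 lower in skin, beside 3.58% of all genes tested. This was the receptor chain gene Cd3d (470.4 ± 83.9 against 1112 ± 226 CPM, SD, n = 4 each, adjusted p = 0.0250 in edgeR). Lower calls among the 8 numbered 0 in DESeq2 and 1 in limma-voom, beside 13.2% and 7.5% of all genes. Cd3d and Cd3g, which was not called, lay wholly below spleen in skin, 2 of the 8, beside 13.4% of all genes tested. The fitted log2 fold change was above 0 for 4 of the 8 and below 0 for 4. Ccr10 stood at 20.5 ± 23.7 and 19.6 ± 17.3 CPM. Markers of other cells were present: the summed level of 8 keratinocyte markers was 106 to 788 CPM in the skin and 0 to 29.5 CPM in the spleen, and that of 5 B cell markers was 0 in all skin libraries and 31.5 to 166 CPM in the spleen. The sum of 7 myeloid markers reached 131 CPM in the skin and 40.6 CPM in the spleen, that of 6 fibroblast markers reached 31.9 CPM in the skin and was 0 in spleen, and 5 mast cell markers were at 0 in all libraries. Of the keratinocyte markers, Perp stood at 76.0 to 198 CPM in the skin libraries and 0 in all spleen libraries. It thus passed the filter on low counts through skin alone. EdgeR called it higher in skin (adjusted p = 0.0328), 1 of the 2 keratinocyte markers tested, beside 1.85% of all genes tested. Perp made up 76.0 of the summed 106 CPM in skin replicate 4 and 151 of the 299 CPM in skin replicate 2. Krt5, Krt14 and Krt15 had counts in 3, 2 and 3 skin libraries and in 0 spleen libraries. Krt10 had counts in 2 skin and 3 spleen libraries, and Krt1, Dsp and Dsg3 had no count in skin. In such bulk libraries, fewer cells of a type and less RNA per cell cannot be told apart.

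All 10 genes had a count in some library. The filter on low counts left 7 of them for the test, and Per2, Clock and Tef, each detected in at most 3 of the 8 libraries, were not tested. Of the 7 tested, 0 were called higher and 0 lower, against 1.85% and 3.58% of the 6920 genes tested. DESeq2, which gave 8 of the 10 an adjusted p, and limma-voom also called 0 in either direction, against 2.24% higher and 13.2% lower of all genes in DESeq2 and 3.02% and 7.5% in limma-voom. In edgeR, 1 of the 7 (Nfil3, higher in skin) had an unadjusted p under 0.05. The share of all genes at that threshold is not given, so counts at an unadjusted p, here and below, are descriptions only. Skin lay wholly above spleen in 2 of the 7, against 6.11% of all genes tested, and wholly below in 0, against 13.4%. The median fitted log2 fold change (skin minus spleen) of the 7 was 1.60, beside -0.29 for all genes tested. These 7 had passed the filter through their counts, so the share says nothing of the 3 that did not. Nfil3 had counts in 4 skin libraries and 1 spleen library, so it passed through the tissue where it was high. Its place among the 2 and in the median is therefore not support for a difference.

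**Figure D1:**
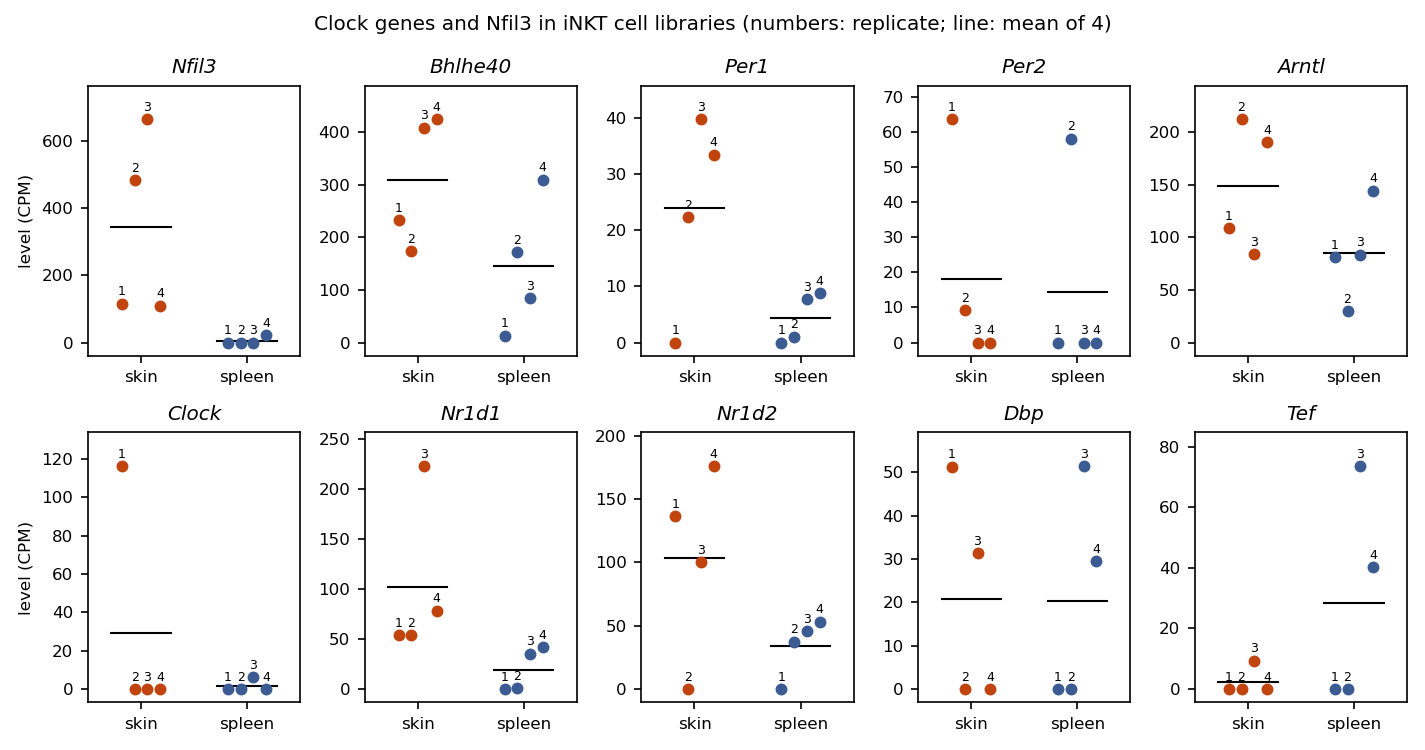
Level of each of the 10 genes in CPM (y axis, linear, each panel with its own scale) in the 4 skin and 4 spleen libraries. Points are libraries with their replicate number and lines are means. Nfil3 and Nr1d1 do not overlap between the tissues, while Clock, Per2 and Tef rest on 1 to 2 libraries per tissue.

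The bases just before the start sites of Nfil3, Per1, Nr1d1 and Nr1d2 are shown as examples. They are known targets of clock factors or of cAMP signalling. The mean level of each was higher in skin, as it was for all of the 10 genes but Tef. Each window shown holds a match to a sequence searched below, while those of Arntl and Dbp, not shown, hold none. They are RefSeq promoter windows of GRCm38.p6, matched by symbol, and 8 of the 10 genes had at least 1 window (13 windows in all). Bhlhe40 and Per2 had none. Strands matched those of GENCODE M21 in all 13, and the first 40 bases after the start were found in that annotation's transcripts for 12. The exception was Nr1d1, whose start there lies 44 bases further downstream. These sequences were searched on both strands in the 250 bases before each start: the E-box CACGTG, its variant CACGTT, the D-box TTATGTAA, the receptor half-site AGGTCA that REV-ERB and ROR proteins bind, and TGACG, the core of the cAMP response element. Capitals mark the matches. A match on the other strand reads as its reverse complement: AACGTG stands for the variant E-box, TGACCT for the receptor half-site and CGTCA for the cAMP core. The matches shown do not overlap.
Nfil3, chr13:52981040-52981128, minus strand, 89 to 1 bases before the start: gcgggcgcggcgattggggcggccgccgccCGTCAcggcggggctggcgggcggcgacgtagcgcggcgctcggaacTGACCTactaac
Per1, chr11:69098699-69098847, plus strand, 250 to 102 bases before the start: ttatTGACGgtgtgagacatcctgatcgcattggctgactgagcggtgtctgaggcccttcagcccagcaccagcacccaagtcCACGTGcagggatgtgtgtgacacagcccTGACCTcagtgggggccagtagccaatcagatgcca
Nr1d1, chr11:98775378-98775435, minus strand, 58 to 1 bases before the start: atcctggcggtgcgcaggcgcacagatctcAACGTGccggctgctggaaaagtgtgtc
Nr1d2, chr14:18239148-18239213, minus strand, 107 to 42 bases before the start: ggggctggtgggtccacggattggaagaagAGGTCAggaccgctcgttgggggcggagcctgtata

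The E-box CACGTG lay in 3 of the 13 windows, 1 of Per1 and 2 of Tef, and in 6.02% of all 32851 windows of this length. AGGTCA lay in 4 windows, of Clock, Per1, Nfil3 and Nr1d2, and in 14.0% of all windows. TGACG lay in 3 windows, 2 of Per1 and 1 of Nfil3, and in 17.8% of all. CACGTT lay in 1 window, that of Nr1d1, and in 3.85% of all, and the D-box TTATGTAA in 0 and in 0.819% of all. A match describes the letters of this window only.

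Nfil3, the repressor at D-boxes, stood at 116, 483, 664 and 109.7 CPM in skin replicates 1 to 4. It had no count in spleen replicates 1 to 3 and stood at 22.6 CPM in spleen replicate 4. The lowest skin library was thus above the highest spleen library, and among the skin libraries replicates 1 and 4 stood well below replicates 2 and 3. The mean was 343 ± 276 CPM in the skin and 5.65 ± 11.3 CPM in the spleen (SD, n = 4 each), a 60.7-fold ratio of means and a fitted log2 fold change of 5.92 ± 2.40 (SE; adjusted p = 0.32 in edgeR, unadjusted p = 0.0361). Without spleen replicate 4, edgeR called it higher in skin (adjusted p = 0.0168), as it did 0.908% of genes in that fit. The skin mean was then 969 times a floor of 3 counts per spleen library. That figure is no lower bound for the tissues, since it leaves out the 22.6 CPM of spleen replicate 4. It covers counting error only, and the fit held no spleen library with a count of Nfil3. Leaving out any other library kept it uncalled, with adjusted p from 0.209 to 0.446. DESeq2 gave an adjusted p of 0.0665 and limma-voom with quality weights 0.0541.

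Spleen replicate 4 stood apart from the other spleen libraries in immediate early genes, a class switched on within minutes when cells are stimulated. The level of the AP-1 subunit gene Fos was 950.0 CPM in that library and 0 to 0.0974 CPM in spleen replicates 1 to 3, against 809 to 1974 CPM in the skin. Junb stood at 3048 CPM there, at 156 to 236 CPM in the other spleen libraries and at 4689 to 8268 CPM in the skin. The MAP kinase phosphatase gene Dusp1 stood at 2032 CPM there, at 0.998 to 239 CPM in the other spleen libraries and at 759 to 3648 CPM in the skin. The nuclear receptor gene Nr4a1 stood at 134 CPM there, at 0 to 41.1 CPM in the others and at 685 to 2226 CPM in the skin. Over 13 such genes the summed level was 9602 CPM in spleen replicate 4, 862 to 1432 CPM in the other spleen libraries and 11338 to 21964 CPM in the skin. Nfil3, Bhlhe40, Per1, Arntl, Nr1d1 and Nr1d2 each had their highest spleen value in the same library, while Dbp, Tef and Clock had theirs in spleen replicate 3 and Per2 in spleen replicate 2. Spleen replicate 4 also held counts for the most genes of any library, 10094 against 6415 to 8690 in the other spleen libraries. The part of either in the levels of the clock genes was not tested. The summed keratinocyte markers, at 728, 299, 788 and 106 CPM in skin replicates 1 to 4, were present in the skin libraries too, and their part in the level of Nfil3 was not tested.

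The levels of Dbp and Tef, the activators at D-boxes, overlapped between the tissues, and these values do not settle whether they differed. Dbp stood at 51.3 and 31.3 CPM in skin replicates 1 and 3 and at 51.5 and 29.4 CPM in spleen replicates 3 and 4, and had no count in the other 4 libraries. Each tissue thus held a pair of libraries with a count and a pair without, at like levels, and the fitted log2 fold change was 0.03 ± 2.86 (SE; adjusted p = 1.0 in edgeR). An error of that size leaves a difference of several fold in either direction undetectable. In the annotation of GRCm38, 29.3% of the exon bases of Dbp lie over exons of Sphk2 on the opposite strand. The library kit did not mark strand, so reads of the overlap cannot be assigned with certainty. Sphk2 averaged 20.8 CPM in the skin and 18.3 CPM in the spleen. By library it stood at 7.42, 5.83, 6.70 and 63.1 CPM in skin replicates 1 to 4. In spleen replicates 1 to 4 it stood at 25.3, 0, 14.7 and 33.3 CPM. The part of the overlap in the level of Dbp was not tested. Tef stood at 9.42 CPM in skin replicate 3, at 73.7 and 40.3 CPM in spleen replicates 3 and 4, and at 0 in the other 5 libraries. It is the 1 gene of the 10 whose mean was lower in skin (2.36 ± 4.71 against 28.5 ± 35.6 CPM), it overlapped between the tissues, and it was not tested.

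The activator pair of the loop was covered unevenly. Arntl was detected in all 8 libraries, at 109, 212, 83.9 and 191 CPM in the skin and 80.9, 29.7, 83.7 and 145 CPM in the spleen. Its skin values reached higher, and the tissues overlapped between 83.9 and 145 CPM. Its means were 149 ± 62.3 and 84.7 ± 47.0 CPM, a log2 fold change of 0.81 ± 0.80 (SE; adjusted p = 0.989 in edgeR). With Bhlhe40 it was the most evenly measured of the 10 genes, and its log2 fold change stayed between 0.46 and 1.2 in all 17 other fits. Clock, by contrast, stood at 116 CPM in skin replicate 1 and 6.13 CPM in spleen replicate 3 and had no count elsewhere. Its values do not show whether it differed between the tissues.

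Among the repressors of the loop, Bhlhe40 stood at 233, 174, 409 and 424 CPM in the skin and at 13.1, 172, 84.9 and 309 CPM in the spleen. Its highest spleen value, in replicate 4, lay above 2 of the 4 skin values. The means were 310.1 ± 125 and 145 ± 128 CPM, a 2.14-fold ratio and a log2 fold change of 1.10 ± 0.81 (SE; adjusted p = 0.864 in edgeR). Without spleen replicate 4 the log2 fold change was 1.78 ± 0.86 (SE; adjusted p = 0.518 in edgeR). Per1, a gene that responds to cAMP signalling and glucocorticoids as well as to the clock, stood at 0, 22.3, 39.7 and 33.5 CPM in the skin and at 0, 1.02, 7.70 and 8.77 CPM in the spleen. Skin replicates 2 to 4 lay above all spleen libraries, and skin replicate 1 was at 0 with spleen replicate 1. The means were 23.9 ± 17.5 and 4.37 ± 4.50 CPM, a log2 fold change of 2.45 ± 2.23 (SE; adjusted p = 0.964 in edgeR). Per2 stood at 63.6 and 9.24 CPM in skin replicates 1 and 2 and at 58.1 CPM in spleen replicate 2. It had no count in the other 5 libraries, and it was not tested.

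Nr1d1 stood at 53.6, 54.1, 223 and 78.4 CPM in the skin and at 0, 0.683, 35.2 and 41.9 CPM in the spleen. The tissues did not overlap, with a gap from 41.9 to 53.6 CPM, and skin replicate 3 stood far above the other skin libraries. The means were 102 ± 81.3 and 19.5 ± 22.2 CPM, a 5.26-fold ratio of means and a log2 fold change of 2.39 ± 1.97 (SE; adjusted p = 0.920 in edgeR). Without spleen replicate 4 it was 3.09 ± 2.44 (SE; adjusted p = 0.984 in edgeR). The 3' end of Nr1d1 overlaps that of Thra on the opposite strand (9.67% of its exon bases), and Thra had no count in skin and at most 9.57 CPM in the spleen. Nr1d2, the REV-ERB beta gene, stood at 136, 0, 99.9 and 176 CPM in the skin and at 0, 37.4, 45.6 and 53.2 CPM in the spleen. Its 3 skin values above 0 were higher than all spleen values, and 1 library of each tissue was at 0. The means were 103 ± 75.4 and 34.0 ± 23.6 CPM, a log2 fold change of 1.60 ± 2.21 (SE; adjusted p = 0.998 in edgeR).

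Counted by library, 8, 6, 8 and 6 of the 10 genes had a count in skin replicates 1 to 4 and 2, 6, 8 and 8 in spleen replicates 1 to 4. Spleen replicate 1, which held Bhlhe40 and Arntl and no other of the 10, also held the fewest genes of the spleen libraries (6415). The 7 tested genes all had a fitted log2 fold change above 0 in edgeR, as had 42.2% of all genes tested, with Dbp at 0.03. Tef, whose mean was lower in skin, had been removed by the filter on low counts, so the 7 do not stand for the 10. With limma-voom, Nr1d2 and Dbp were below 0 (-0.60 and -2.97) and the other tested genes above.

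**Figure D2:**
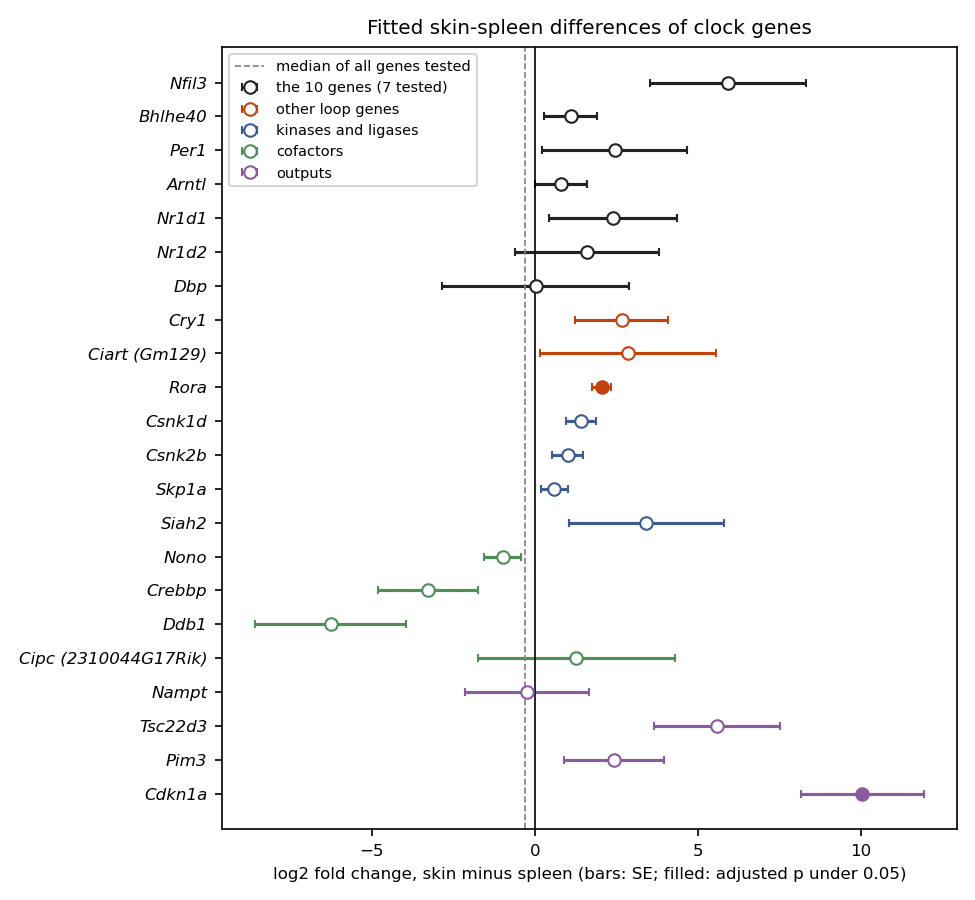
Fitted log2 fold change (x axis, skin minus spleen) with its SE for the 7 tested genes of the 10 and for named genes of 4 lists of other clock genes. Filled points passed the test; among these genes they are Rora and Cdkn1a, and the dashed line marks the median of all genes tested (-0.29).

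The wider clock was described with 55 other genes in 4 lists, of which 37 were tested. Of these, 2 were higher in skin, Rora and Cdkn1a, and 0 lower by edgeR, beside 1.85% and 3.58% of all genes tested. At an unadjusted p under 0.05 in edgeR the counts were 4 and 1. DESeq2 called 2 higher and 4 lower of the 42 it gave an adjusted p, beside 2.24% and 13.2% of all genes. For limma-voom the calls were 2 higher and 1 lower of 37, beside 3.02% and 7.5%. Their median log2 fold change was 0.68, and 23 of the 37 were above 0. Skin lay wholly above spleen in 5 and wholly below in 2 of the 37, beside 6.11% and 13.4% of all genes tested.

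Other genes of the loop numbered 12, with 8 detected and 5 tested. EdgeR called 1 of the 5 higher and 0 lower, beside 1.85% and 3.58% of all genes tested. Skin lay wholly above spleen in 2 of the 5, beside 6.11% of all genes tested. Rora, whose product activates at the sites where REV-ERB proteins repress, stood at 925, 979, 738 and 1155 CPM in the skin and at 299.7, 141, 277 and 201 CPM in the spleen. All skin values were at least 2 times the highest spleen value. It was higher in skin with a log2 fold change of 2.05 ± 0.29 (SE; adjusted p = 0.00989 in edgeR) and was called in each of the 8 fits without 1 library. DESeq2 did not call it (adjusted p = 0.0564). The PER partner gene Cry1 stood at 294, 465, 290.0 and 222 CPM in the skin and at 0, 44.3, 60.7 and 96.8 CPM in the spleen. It did not overlap between the tissues, and its log2 fold change of 2.66 ± 1.41 (SE) did not pass (adjusted p = 0.587 in edgeR). The repressor gene Ciart, listed under its older symbol Gm129, stood at 21.0, 157, 58.8 and 32.5 CPM in the skin, at 37.5 CPM in spleen replicate 4 and at 0 in the other spleen libraries (adjusted p = 0.974 in edgeR). Arntl2, Per3, Rorb and Hlf had no count in any library, and Npas2, the CLOCK paralog gene, had counts in spleen replicates 3 and 4 only (40.9 and 12.8 CPM).

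Kinases and ubiquitin ligases that act on clock proteins numbered 18, with 14 tested. EdgeR, DESeq2 and limma-voom called 0 in either direction (1 higher at an unadjusted p under 0.05 in edgeR). Over all genes, edgeR called 1.85% higher and 3.58% lower, DESeq2 2.24% and 13.2%, and limma-voom 3.02% and 7.5%. Csnk1d, the casein kinase 1 delta gene whose product marks PER proteins for destruction, stood at 537, 469, 163 and 635 CPM in the skin and at 111, 219, 161 and 186 CPM in the spleen. Its log2 fold change was 1.41 ± 0.45 (SE; adjusted p = 0.145 in edgeR), and skin replicate 3 lay within the spleen range. Csnk2b, Skp1a and Siah2 had log2 fold changes of 1.0, 0.59 and 3.42 and did not pass either. Cofactors of the clock numbered 16, with 14 tested and 0 called by edgeR (1 lower at an unadjusted p under 0.05, and 2 lower by DESeq2). The adaptor gene Ddb1, part of a CUL4 ubiquitin ligase, stood at 0, 0, 0.114 and 9.46 CPM in the skin and at 190.0, 299.9, 85.4 and 157 CPM in the spleen (adjusted p = 0.239 in edgeR). The acetyltransferase gene Crebbp averaged 3.13 ± 3.05 CPM in the skin and 30.3 ± 13.6 CPM in the spleen (adjusted p = 0.454 in edgeR). Both lay wholly below spleen in skin, 2 of the 14 tested, beside 13.4% of all genes tested. DESeq2 called both lower, beside 13.2% of all genes, and limma-voom called Ddb1 lower, beside 7.5%. For a list of this size these counts were near the shares of all genes. Nono averaged 207 ± 146 and 409 ± 61.6 CPM, and Cipc, listed as 2310044G17Rik, 73.2 ± 122 and 30.3 ± 38.4 CPM; neither was called.

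Of 10 genes that cycle under the clock in many tissues, 4 were tested. EdgeR called 1 of the 4 higher and 0 lower, beside 1.85% and 3.58% of all genes tested. DESeq2 called 2 higher and 1 lower of the 6 it gave an adjusted p, beside 2.24% and 13.2%. Skin lay wholly above spleen in 3 of the 4, beside 6.11% of all genes tested. With so few genes, these counts are descriptions. Cdkn1a, which encodes the cell cycle inhibitor p21 and responds to p53 and other stress signals besides the clock, was higher in skin, at 663, 802, 857 and 286 CPM there and at 2.53 CPM in spleen replicate 4, with 0 in the other spleen libraries. Its log2 fold change was 10.03 ± 1.88 (SE, adjusted p = 0.0343 in edgeR). The call was lost without any 1 of skin replicates 1 to 3 or spleen replicates 1 to 3 (adjusted p 0.0655 to 0.091 in edgeR). With counts in 4 skin libraries and 1 spleen library, Cdkn1a passed the filter through the tissue where it was high. Tsc22d3, the glucocorticoid-induced leucine zipper gene, stood at 1122, 311, 909 and 329 CPM in the skin and at 0, 0, 22.5 and 33.6 CPM in the spleen. It had no overlap between tissues but did not pass edgeR (log2 fold change 5.57 ± 1.93, SE; adjusted p = 0.193), while DESeq2 called it (adjusted p = 0.0345). The kinase gene Pim3 did not overlap either (318 ± 233 against 59.2 ± 71.1 CPM; adjusted p = 0.733 in edgeR). Nampt, the enzyme gene of NAD synthesis that the clock drives, averaged 45.3 ± 43.2 and 53.4 ± 33.8 CPM, and Usp2 and Gys2 had no count in any library.

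**Figure D3:**
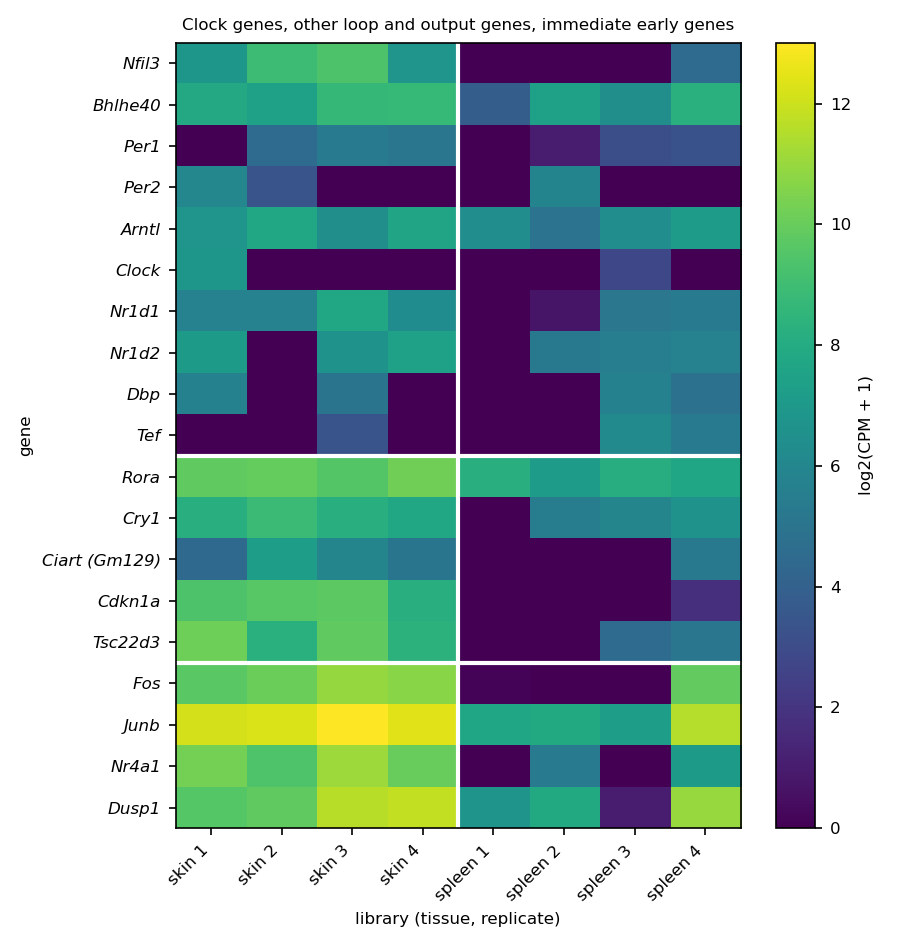
Level as log2(CPM + 1) (colour) of the 10 genes (upper block), other loop and output genes (middle block) and immediate early genes (lower block) in each library (x axis), to be compared along a row, since levels are not scaled by transcript length. Spleen replicate 4 has the highest spleen levels of Nfil3, Bhlhe40, Fos and Junb.

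Likeness of profiles was measured as the root-mean-square difference of mean-centred log2(CPM + 1) values over the 8 libraries, for the 5 of the 10 genes detected in at least 6 libraries, against 6038 tested genes. Nfil3, with counts in 5 libraries, was not among them. Nearest to Bhlhe40 was Sec62, at 0.479 log2 units, with 127 ± 37.6 CPM in the skin and 53.0 ± 33.7 CPM in the spleen, followed by 2810403A07Rik (0.527) and Eif3j (0.569). Nearest to Arntl were Chmp1b (0.277), Vdac2 (0.335) and Mmadhc (0.350). Among those nearest to Nr1d1 were Ubash3b (0.539) and Vcpip1 (0.579), both at 0 in at least 1 library. For Nr1d2 they were Nup153 (0.421), Cep120 (0.519) and Kpna1 (0.627), and for Per1 Rbm33 (0.618), Tprn (0.683) and Ppp4r2 (0.864). With 2 tissues, genes that share a tissue difference and zeros in the same libraries come out alike, so these are descriptions.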

How the data were processed

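RNA of iNKT cells was sequenced in 4 skin and 4 spleen libraries. The cDNA kit was SMART-Seq v4, per the labels' protocols, which copies full-length transcripts from little RNA and does not mark strand. The authors deposited unscaled expected counts for each gene from RSEM, which divides ambiguous reads among genes. Beside RSEM, the submitters' processing notes list FastQC, DESeq2 1.16.1 and mm9. Aligner and annotation: not given in the sources used here. Columns were matched to libraries by the names in the labels' descriptions.

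Expected counts were rounded. Genes were filtered with filterByExpr (6920 of 22549 left) and TMM factors were computed. The robust quasi-likelihood test of edgeR 4.0.16 (limma 3.58.1, R 4.3.3) was fitted with a tissue term alone, and p-values were adjusted (Benjamini-Hochberg) over all genes tested, with a threshold of 0.05. The common dispersion was 2.94. CPM use TMM-scaled totals; 3 counts correspond to 0.292 to 0.454 CPM, which covers counting error only, as reads carry no molecular identifiers. SEs are the log2 fold change divided by the square root of F. The script was tested on simulated counts. Alternatives were other scalings and filters, DESeq2 1.42.0, limma-voom, rounding down, the replicate block, removal of the 50 most abundant genes, and each library left out. Libraries did not agree within sampling noise (smallest chi-square per degree of freedom 112).

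The 10 genes and all lists were chosen with earlier results of these data known. The rule for named genes took the 10 genes, Ccr10, Cd3e, Fos, Junb, Nr4a1 and Dusp1, called list members or else up to 4 per list by adjusted p, and the 3 nearest profiles; other list genes named were chosen after their values were seen. Some genes that the rule names are not reported here. Of 131 list entries, 131 matched, 4 by an older symbol. Promoter sequences are RefSeq's, of GRCm38.p6, and overlaps come from GENCODE M21; no coordinate of the counts' build was used.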

Additional observations from a re-analysis of the deposited data

Results flagged for a closer look

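In 18 of the 74 groups of 4 libraries examined, 1 library lay far from the other 3. Its gap to the nearest of them, divided by the range of the 4 values, exceeded Dixon's 95% critical value. Chance flags about 1 in 20 groups of normally spread values, and groups with 3 zeros and 1 value above 0 are flagged by construction. Of these, 6 were in spleen replicate 4 with values near 0 or far lower in the other spleen libraries: Nfil3 at 22.6 CPM, Gm129 (Ciart) at 37.5 CPM, Siah2 at 71.6 CPM, Fos at 950.0 CPM, Junb at 3048 CPM and Dusp1 at 2032 CPM. Cdkn1a, at 2.53 CPM there, was a further one. Among the clock genes, Per2 stood apart at 63.6 CPM in skin replicate 1 and at 58.1 CPM in spleen replicate 2. Clock stood apart at 116 CPM in skin replicate 1 and at 6.13 CPM in spleen replicate 3. Nr1d1 stood apart at 223 CPM in skin replicate 3, where the next skin value was 78.4 CPM, and Tef at 9.42 CPM in the same library. The kinase gene Pim3 did so there at 664 CPM. Skin replicate 4 stood apart for Ddb1 at 9.46 CPM, 2310044G17Rik (Cipc) at 255 CPM and Tox at 122 CPM, and spleen replicate 1 for Tox at 129 CPM.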

How the results depend on the processing

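The call counts of the 10 genes were 0 higher and 0 lower in every alternative run except that without spleen replicate 4, where 1 (Nfil3) was higher (range 0 to 1 over the fits without 1 library). Spleen replicate 4 held the only spleen count of Nfil3. Of the other clock genes, 2 were higher and 0 lower with all libraries; without 1 library 1 to 2 were higher and 0 to 1 lower, the latter Ddb1 without skin replicate 4. With the replicate number as a block 0 were higher; DESeq2 called 4 lower (Crebbp, Ddb1, Npas2 and Wee1) and limma-voom 1 lower. Same-numbered libraries did not deviate together (correlations of -0.000311 to 0.0138), and the labels do not pair them; under the block, Nfil3 had an adjusted p of 0.288, Rora 0.0804 and Cdkn1a 0.0934. Over all genes, 128 higher and 248 lower became 97 and 48 without a filter, 200 and 1177 with DESeq2, 209 and 519 with limma-voom, 36 and 14 with the block, 57 and 49 without the 50 most abundant genes, and 47 to 102 and 17 to 111 without 1 library. The difference in genes detected (skin minus spleen, -2381) kept its direction without 1 library, at -2917 to -1691, and missed the threshold without any 1 of the skin libraries (exact permutation p = 0.0857).

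Directions that reversed were all of uncalled genes, and the cause was not tested. The log2 fold change of Dbp (0.03) was -2.97 with limma-voom, -0.50 with the block, -0.0024 without the 50 most abundant genes and -0.97 to 1.07 without 1 library. That of Nr1d2 was -0.60 with limma-voom. Ccr10 was at -2.71 with limma-voom, -3.56 with the block and -0.67 to 0.47 without 1 library, and Cd3e at -0.018 with limma-voom and -0.21 to 0.26 without 1 library. 2310044G17Rik was at -3.46 with limma-voom and -1.28 to 2.40 without 1 library, and Nampt at -0.95 to 0.14 without 1 library. Zeros limit what low levels can show: 37.8% of skin values and 15.0% of spleen values were 0 where the remaining libraries of the tissue averaged 30 to 60 CPM.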

Other observations

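Genes of lymphocytes that are linked to NFIL3 or BHLHE40 numbered 13, of which 5 were tested and 0 called by edgeR, DESeq2 or limma-voom (1 lower at an unadjusted p under 0.05). Of all genes tested, edgeR called 1.85% higher and 3.58% lower, DESeq2 2.24% and 13.2%, and limma-voom 3.02% and 7.5%. Id2, which encodes an inhibitor of E proteins needed by innate-like lymphocytes, stood at 1262, 1075, 1260.5 and 1686 CPM in the skin and at 2240.0, 1838, 2796 and 2157 CPM in the spleen. All skin values lay below all spleen values, as for 13.4% of all genes tested, with a log2 fold change of -0.77 ± 0.19 (SE). The adjusted p in edgeR was 0.05003, just over the threshold, and 0.030 to 0.145 without 1 library. In the other alternative runs it ranged from 0.0461 to 0.773, at 0.211 with the block in edgeR and highest in DESeq2. The cytokine gene Il4 stood at 0, 0, 8.85 and 20.2 CPM in the skin and at 76.6, 8.77, 41.5 and 47.0 CPM in the spleen, overlapped between the tissues and was not called. Tox, a regulator of T cell development, averaged 33.6 ± 58.9 CPM in the skin and 62.7 ± 44.8 CPM in the spleen. Il10, Il3, Il5, Il13, Eomes and Havcr2 had no count in any library.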
